A study of Homo sapiens with 2 samples.

Results

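The 78 genes named MRPL or MRPS followed by a number, which by name encode the proteins of the mitochondrial ribosome, were examined in PLC-8024 cells with and without GDF1. They were chosen by symbol alone, among the 58174 genes of the deposited tables, and the rule uses no expression value, although it was set with earlier results of these data known. PLC-8024 is a human hepatocellular carcinoma (HCC) cell line. The data comprised 1 RNA-seq library of PLC-8024-CTR cells, which received the control vector, and 1 library of PLC-8024-GDF1 cells, in which GDF1, a ligand of the TGF-β superfamily, was overexpressed. GDF1 was delivered by lentivirus and the cells were kept under puromycin, so each library is a selected population of a single line, and the question was which transcripts differ when GDF1 is present. Each condition was sequenced once, so none of the differences below could be checked in replicates and none was tested for significance. The columns of the deposited tables are headed as mean TPM, and whether a mean over several runs was taken is not given in the sources used here. Levels are in TPM, a unit that divides the reads of a gene by its length and scales both libraries to the same total. The sequencing depth therefore cannot be read from these values, and no counting error can be given from them. The paper refers to a supplementary figure for QC metrics, which was not among the sources used here. The change of a gene is log2(TPM + 1) in PLC-8024-GDF1 minus log2(TPM + 1) in PLC-8024-CTR, which understates changes at low levels, and a gene was called when this change passed 1 in either direction, that is 2-fold.

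The mitochondrial ribosome translates the few mRNAs of the mitochondrial genome, all of which encode subunits of the respiratory chain and ATP synthase. Its rRNAs come from the mitochondrial genome, while its proteins are encoded in the nucleus, made in the cytosol and imported. Some of these proteins descend from bacterial ribosomal proteins and others are found only in mitochondria. The large subunit joins amino acids and carries the exit site for the new protein, and the small subunit reads the mRNA. By the current naming of ribosomal proteins, MRPS18A and MRPS30 belong to the large subunit despite their symbols, and MRPS36 is a subunit of the 2-oxoglutarate dehydrogenase complex. Sorted in this way, the 78 genes comprised 51 of the large subunit (30 with a bacterial homologue and 21 specific to mitochondria), 26 of the small subunit (16 and 10, respectively) and MRPS36.

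Of the other genes that bear on the libraries, the level of GDF1 was 2.096 TPM in the control library against 4.64 TPM in the GDF1 library, and that of CERS1, which shares its exons, was 13.3 against 9612 TPM. All 8 markers of the hepatocyte lineage examined (ALB, APOA1, APOB, FGB, HNF4A, SERPINA1, TTR and AFP, of which AFP also marks fetal and progenitor cells) reached 1 TPM and all 8 were lower in PLC-8024-GDF1, their summed level being 8089 TPM and 4684 TPM. Of 9 markers of blood, endothelial cells and fibroblasts, 8 were under 1 TPM in both libraries and PTPRC, VWF and COL1A2 were listed at 0.0001 TPM, the value that stands for 0, while PECAM1 was listed at 23.2 and 22.2 TPM. Whether these differences had a part in the values below was not tested. A total of 14929 genes reached 1 TPM in at least 1 library, and over these expressed genes the median change was -0.20. Changes are given on the scale of the deposited values, where 0 is an equal TPM, and of the 78 genes 44 lay above the median of -0.20 and 25 above 0.

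All 78 genes were expressed by this criterion. Of them, 4 fell over 2-fold in PLC-8024-GDF1 cells (5.13%, against 9.61% of all expressed genes), namely MRPS27, MRPL10, MRPS35 and MRPS31. None of the 78 rose over 2-fold, against 4.82% of all expressed genes, and the other 74 lay between -0.96 and 0.80. MRPS27, MRPL10 and MRPS35 also fell over 4-fold (3.85% of the 78, against 1.27% of all expressed genes). Of the 78, 74 were among the 6866 genes with at least 10 TPM in PLC-8024-CTR. A fall of over 4-fold was found in 124 of the 6866 (1.81%), 3 of them among the 74. A fall of over 8-fold was found in 33 of the 6866 (0.481%), and MRPS27 and MRPL10 were 2 of these. No test across replicates stands behind any of these shares.

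MRPS27 (ENSG00000113048, chromosome 5 of GRCh37, 71510780 to 71617544, minus strand) encodes a small-subunit protein with pentatricopeptide repeats, a fold that binds RNA. Its level was 30.2 TPM without and 0.202 TPM with GDF1 overexpression, a change of -4.70. It was the gene with the lowest level of all 78 in PLC-8024-GDF1, whereas 15 genes had a lower level in PLC-8024-CTR. MRPL10 (ENSG00000159111, chromosome 17, 45900638 to 45908907, minus strand) encodes the protein at the base of the stalk to which translation factors bind. Its levels were 77.5 TPM in control cells and 5.61 TPM in GDF1 cells, a change of -3.57 and a TPM value 13.8-fold lower. MRPS35 (ENSG00000061794, chromosome 12, 27863755 to 27909228, plus strand) was listed at 51.1 and 6.96 TPM (change -2.71). MRPS31 (ENSG00000102738, chromosome 13, 41303264 to 41345326, minus strand) was listed at 18.8 and 4.39 TPM (change -1.88). MRPS27, MRPS35 and MRPS31 encode small-subunit proteins without a bacterial homologue. In RNA from a whole culture, a lower level in every cell and a loss from some of the cells cannot be told apart. The reads themselves were not examined, so whether some were assigned differently in the libraries was not tested.

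No gene lay just beyond the 2-fold line, since the called gene nearest to it was MRPS31 at -1.88. The genes nearest to the line on its inner side were MRPL44 (27.9 and 13.9 TPM, change -0.96), which encodes a protein related to ribonuclease III, MRPL46 (91.1 and 47.0 TPM, change -0.94) and MRPL49 (6.36 and 3.08 TPM, change -0.85). By the plain TPM ratio, MRPL44 (-1.005) and MRPL49 (-1.05) also passed 2-fold. They were followed by MRPL3 (45.8 and 25.1 TPM, change -0.84), MRPS30 (23.8 and 12.9 TPM, change -0.83), MRPL39 (42.7 and 23.9 TPM, change -0.81), MRPS18A (189.1 and 108.7 TPM, change -0.79) and MRPL19 (12.5 and 6.81 TPM, change -0.79). These 8 genes all belong to the large subunit, in which MRPL3 is the homologue of a bacterial protein near the catalytic centre.

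At the upper end, MRPS5 (ENSG00000144029, chromosome 2, 95751114 to 95787751, minus strand), the homologue of a bacterial protein at the entry of the mRNA channel, was listed at 89.0 TPM in control cells and 155.6 TPM in GDF1 cells (change 0.80). MRPL41 followed with 191.4 and 309.9 TPM (change 0.69), then MRPL24 with 167.0 and 252.3 TPM (change 0.59) and MRPL22 with 42.7 and 64.5 TPM (change 0.58). MRPL38 (137.4 and 202.5 TPM), MRPS21 (131.5 and 193.6 TPM), MRPL34 (41.5 and 61.4 TPM) and MRPL23 (286.7 and 406.7 TPM) had changes of 0.50 to 0.56. None of these 8 genes passed 2-fold. MRPS5 did so, at 1.004, when the TPM values were rescaled to a median ratio of 0, and both MRPS5 (1.25) and MRPL22 (1.04) did so when the trend with GC content was subtracted.

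**Figure D1:**
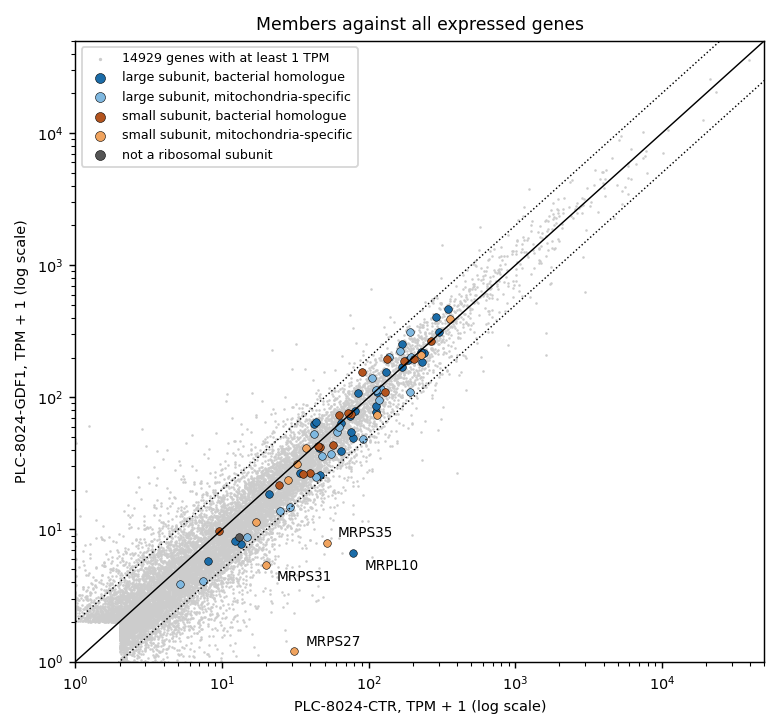
TPM + 1 of each gene in PLC-8024-GDF1 (y axis, log scale) against PLC-8024-CTR (x axis, log scale), 1 library each, for the 14929 expressed genes (grey) and the 78 genes by class (coloured); the solid line marks equal values and the dotted lines 2-fold. The 74 uncalled genes lie between the dotted lines, and MRPS27, MRPL10, MRPS35 and MRPS31 lie below them.

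The subunits were then compared. The 51 genes of the large subunit had a median change of -0.16, and 1 of them fell over 2-fold (1.96%, against 9.61% of all expressed genes). The 26 genes of the small subunit had a median change of -0.10, and 3 of them fell over 2-fold (11.5%, against the same 9.61%). The 46 genes with a bacterial homologue had a median change of -0.06 and the 31 genes specific to mitochondria one of -0.28. The latter median was -0.04 with the GC trend subtracted, -0.08 after rescaling and -0.57 without genes that overlap another expressed gene on either strand. The lowest median was that of the 10 small-subunit genes specific to mitochondria (-0.41). Of these 10, 8 were below 0 (80%, against 63.3% of all expressed genes) and 3 fell over 2-fold (30%, against 9.61%). In contrast, the 16 small-subunit genes with a bacterial homologue had a median of -0.03 and ranged from -0.57 (MRPS28) to 0.80 (MRPS5). No test of these differences between classes could be made with these 2 libraries.

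Added up, the 78 genes had nearly the same TPM in both libraries, 7638 in PLC-8024-CTR and 7742 in PLC-8024-GDF1, which is 0.764% and 0.774% of all TPM. The log2 change of this sum was 0.02, and 0.23 after rescaling to a median ratio of 0. The sum of the large subunit was 5271 and 5415 TPM and that of the small subunit 2355 and 2319 TPM. The mean per gene was 103.3 and 106.2 TPM in the large subunit against 90.6 and 89.2 TPM in the small subunit, a ratio of 1.14 in PLC-8024-CTR and 1.19 in PLC-8024-GDF1. The median gene, however, was listed at 72.6 and 62.3 TPM, and 53 of the 78 genes (67.9%) were below 0 in change, against 63.3% of all expressed genes. Across the 78 genes, the change and the level in PLC-8024-CTR had a Spearman's rho of 0.49, given as a description, since genes of the same libraries are not independent replicates and the level itself enters the change.

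Although each ribosome holds most of these proteins as a single copy, their transcripts differed widely in level. In PLC-8024-CTR they ranged from 4.19 TPM (MRPL42) to 356.5 TPM (MRPS34). The order of levels was similar in both libraries (Spearman's rho 0.94 across the 78 genes), and 7 of the 10 highest genes were shared. MRPL12, which binds the stalk in several copies, was listed at 348.1 and 464.1 TPM and was the highest in PLC-8024-GDF1. MRPS34 was listed at 356.5 and 391.2 TPM, MRPL23 at 286.7 and 406.7 TPM, MRPL20 at 300.05 and 313.3 TPM and MRPS24 at 264.1 and 264.1 TPM. MRPL41, MRPL11 (238.4 and 216.9 TPM) and MRPL28 (226.4 and 221.2 TPM) completed the 8 genes with the highest mean. The genes with the lowest mean were MRPL42 (4.19 and 2.89 TPM), MRPL49, MRPL30 (7.05 and 4.80 TPM), MRPS14 (8.46 and 8.66 TPM) and MRPL1 (11.2 and 7.22 TPM). A level under 10 TPM was found for 4 genes in PLC-8024-CTR and 12 in PLC-8024-GDF1.

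Within the parts of the large subunit, genes did not move together. In the stalk, MRPL10 fell from 77.5 to 5.61 TPM, while its partner MRPL12 had a change of 0.41, MRPL54 one of 0.41 (105.0 and 139.5 TPM), MRPL53 one of 0.02 and MRPL11 one of -0.14. Of 7 genes at the polypeptide exit site, 3 were above 0 (MRPL22, MRPL23 and MRPL24) and 4 below, among them MRPL45 (54.6 and 36.5 TPM, change -0.57), which holds the ribosome to the inner membrane, and MRPL47 (20.03 and 17.6 TPM, change -0.18). MRPL22, MRPL23, MRPL24 and MRPL47 have bacterial homologues near the tunnel exit, and MRPL39, MRPL44 and MRPL45 are specific to mitochondria. MRPL47 lay above the median of all genes. Of 8 genes listed here under the central protuberance, 6 were below 0 and 4 below the median of all genes. Those below 0 ran from MRPL46 and MRPS30 to MRPL27 (79.7 and 78.1 TPM). MRPL55 (130.7 and 154.5 TPM, change 0.24) and MRPL38 were above 0. This list was drawn up by hand and left out MRPL52 (change 0.45) and MRPL58 (change 0.32). Whether MRPS30 belongs on it was not checked.

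The 3 paralogues of the bacterial S18 protein, which occupy different places in the ribosome, were all below 0. MRPS18A, of the large subunit, had a change of -0.79, MRPS18B (112.0 and 72.01 TPM) one of -0.63 and MRPS18C (23.4 and 20.8 TPM) one of -0.16, which lies above the median of all genes. That of MRPS18C became positive when the values were rescaled to a median ratio of 0 (0.036) or the GC trend was subtracted (0.31). MRPS36, which is not part of the ribosome, was listed at 12.05 and 7.78 TPM (change -0.57). MRPS18A and MRPS18B were counted here as specific to mitochondria and MRPS18C as the bacterial homologue.

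The neighbourhood of the 4 genes that fell was examined next. No gene with at least 1 TPM overlapped any of them on either strand. Within 50 kb of MRPS27 no other gene reached 1 TPM, and PTCD2, which shares exon positions with it on the other strand, was listed at 0.922 and 0.281 TPM. Near MRPL10, LRRC46 lies 0.093 kb away on the other strand and was listed at 0.593 and 1.02 TPM, SCRN2, 6.15 kb away, at 71.6 and 88.2 TPM, and SP6, 13.4 kb away, at 1.14 and 0.147 TPM (change -0.90). Near MRPS35, PPFIBP1 (15.3 kb away) fell from 5.11 to 0.836 TPM, while KLHL42 (23.8 kb away) was listed at 6.17 and 4.61 TPM. Near MRPS31, both expressed genes within 50 kb fell over 2-fold. SLC25A15, the mitochondrial ornithine carrier, fell from 38.5 to 7.33 TPM (18.2 kb away), and the microRNA gene MIR621 from 54.1 to 0.497 TPM (39.6 kb away). The libraries were made from poly-T selected RNA, which limits what the value of a microRNA gene measures. Both genes lie on the strand opposite to MRPS31, and whether they share reads was not tested. Within 1 Mb of MRPS31, 2 of 9 expressed genes fell over 2-fold (these 2), beside 9.61% of all expressed genes. Over the same distance, 1 of 4 expressed genes fell around MRPS27, 2 of 33 around MRPL10 (where 3 rose) and 2 of 13 around MRPS35. The median change of the expressed genes in these regions was -0.85 around MRPS31, -0.88 around MRPS27, and -0.31 around both MRPL10 and MRPS35.

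Reads could also be shared with pseudogenes of these genes. The tables list 67 such pseudogenes by name, and their levels added up to 5.19 TPM in control cells and 6.20 TPM in GDF1 cells. MRPS31P5 (2.41 and 3.26 TPM) and MRPL45P2 (1.62 and 2.59 TPM) reached 1 TPM, and the rest did not. Of the 78 genes, 9 overlap another expressed gene on the same strand and 31 on either strand. Whole gene spans were compared, introns included, so whether exons overlap and reads were counted elsewhere was not tested. Among the 9 were MRPL33 (with BABAM2), MRPL28 (with TMEM8A), MRPL53 (with CCDC142), MRPS17 (with NIPSNAP2), MRPL19, MRPL30, MRPL20, MRPL9 and MRPL38. Without the 31, the median over the remaining 47 genes was -0.14.

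The promoters of the genes were read from RefSeq to see what they share beyond the name. RefSeq (GRCh38.p14) gave a window of 300 bases, from 250 before to 50 after the start, for 69 of the 78 genes, and the start listed first was used where a gene had several. 4 motifs were searched on both strands: CCGGAAG (the ETS site, bound among others by GABPA), AAGATGGC (the YY1 site), GCGCATGC (the core of the NRF1 site) and CACGTG (the E-box, bound among others by MYC). The ETS motif was found in 29 of the 69 windows (42.0%), against 10.7% of all 27305 gene windows and 19.9% of the windows of 9189 expressed protein-coding genes. The YY1 motif was found in 20 (29.0%), against 3.03% and 5.66%. The NRF1 core was found in 6 (8.70%), against 3.27% and 5.91%, and the E-box in 6 (8.70%), against 7.43% and 10.5%. Of the 39 ETS matches, 30 lay before the start, whereas only 6 of the 21 YY1 matches did, and the median YY1 match lay 10 bases after it.

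The windows below are shown for those of the 4 fallen genes with an entry, for MRPS5, which had the largest positive change, and for MRPL20 and MRPL51, the 2 genes with the highest mean level that hold both an ETS and a YY1 motif. Each runs from 200 bases before to 30 bases after the start, 5′ to 3′ on the strand of the gene, and capitals mark a motif. On GRCh38.p14 they are chr5:72320211-72320440 (minus strand, MRPS27), chr12:27710632-27710861 (plus, MRPS35), chr13:40771161-40771390 (minus, MRPS31), chr2:95121779-95122008 (minus, MRPS5), chr1:1407264-1407493 (minus, MRPL20) and chr12:6493233-6493462 (minus, MRPL51).
MRPS27: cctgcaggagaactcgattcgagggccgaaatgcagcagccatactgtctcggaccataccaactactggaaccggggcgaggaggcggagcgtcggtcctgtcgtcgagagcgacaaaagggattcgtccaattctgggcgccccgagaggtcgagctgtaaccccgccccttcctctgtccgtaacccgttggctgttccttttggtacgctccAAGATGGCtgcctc
MRPS35: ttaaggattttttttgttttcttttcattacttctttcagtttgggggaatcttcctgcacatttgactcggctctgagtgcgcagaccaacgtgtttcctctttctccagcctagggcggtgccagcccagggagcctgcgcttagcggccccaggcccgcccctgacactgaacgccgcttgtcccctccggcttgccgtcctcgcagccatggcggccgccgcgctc
MRPS31: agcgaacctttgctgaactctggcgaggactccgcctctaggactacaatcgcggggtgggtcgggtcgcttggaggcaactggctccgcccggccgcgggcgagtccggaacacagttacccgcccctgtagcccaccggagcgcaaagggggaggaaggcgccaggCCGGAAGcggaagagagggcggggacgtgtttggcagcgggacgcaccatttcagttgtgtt
MRPS5: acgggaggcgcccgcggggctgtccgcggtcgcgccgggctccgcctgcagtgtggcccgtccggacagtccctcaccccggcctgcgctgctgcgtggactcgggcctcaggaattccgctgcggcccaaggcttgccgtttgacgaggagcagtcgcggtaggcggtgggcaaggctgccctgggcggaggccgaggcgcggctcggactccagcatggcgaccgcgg
MRPL20: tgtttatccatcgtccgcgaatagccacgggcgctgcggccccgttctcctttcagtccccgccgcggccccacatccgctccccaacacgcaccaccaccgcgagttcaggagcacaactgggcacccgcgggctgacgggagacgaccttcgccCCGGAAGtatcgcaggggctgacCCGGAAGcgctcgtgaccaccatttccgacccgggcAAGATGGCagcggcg
MRPL51: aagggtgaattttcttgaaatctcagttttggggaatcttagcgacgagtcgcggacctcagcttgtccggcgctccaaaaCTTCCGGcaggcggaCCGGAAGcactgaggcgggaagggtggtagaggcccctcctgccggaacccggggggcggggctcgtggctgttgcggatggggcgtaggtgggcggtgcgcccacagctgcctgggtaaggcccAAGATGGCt

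MRPL10 had no window, and the other 3 fallen genes had no motif in common. MRPS27 holds a YY1 motif that begins 17 bases after the start and no ETS motif, MRPS31 holds an ETS motif that begins 32 bases before the start (position -32) and no YY1 motif, and MRPS35 holds none of the 4. MRPS5 holds none either. MRPL20 (300.05 and 313.3 TPM) and MRPL51 (192.9 and 202.3 TPM) each hold a pair of ETS motifs and a YY1 motif, and their changes were 0.06 and 0.07. Over all genes with a window, the median change was -0.16 with and -0.08 without an ETS motif (29 and 40 genes), and -0.30 with and -0.07 without a YY1 motif (20 and 49 genes). A match describes the letters of the window and not the binding of a factor.

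The other genes of mitochondrial translation were examined to place these values. Of 5 mitoribosomal proteins with symbols of another kind, none passed 2-fold: AURKAIP1 was listed at 360.3 and 538.2 TPM and GADD45GIP1 at 248.4 and 349.0 TPM, while DAP3 (65.8 and 50.3 TPM) and PTCD3 (17.3 and 14.2 TPM), the other small-subunit protein with pentatricopeptide repeats, were below 0. The 26 assembly factors had a median change of -0.19. Of them, METTL15, a methyltransferase of the small rRNA (0.202 and 2.14 TPM), rose over 2-fold (3.85%, against 4.82% of all expressed genes). GTPBP10, a GTPase that acts in assembly of the large subunit (3.60 and 0.673 TPM), fell over 2-fold (3.85%, against 9.61%). MTG1 (90.1 and 79.0 TPM) was among the highest of this list, with RCC1L (68.5 and 62.7 TPM).

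A further list of 16 genes held translation factors together with LRPPRC, SLIRP, OXA1L and TACO1. Of the 16, none rose and 2 fell over 2-fold (12.5%, beside 9.61% of all expressed genes). MTRF1L, a release factor, fell from 9.36 to 2.37 TPM. GFM1, the elongation factor that moves the ribosome along the mRNA, fell from 6.18 to 2.32 TPM. The median change of the 16 was -0.46 (-0.27 after rescaling and -0.06 with the GC trend subtracted). TUFM, the elongation factor that delivers aminoacyl-tRNA, was the highest of the list in level (424.0 and 588.1 TPM) and in change (0.47), followed in level by SLIRP (160.3 and 176.0 TPM). Of 11 expressed regulators of mitochondrial biogenesis, 3 fell over 2-fold (27.3%, against 9.61% of all expressed genes). GABPA, which binds the ETS site, fell from 3.32 to 0.949 TPM (change -1.15). Its partner GABPB1 fell from 13.2 to 5.81 TPM (change -1.06), and TFAM, which packages mitochondrial DNA, from 4.51 to 1.51 TPM (change -1.14). All 3 lay close to the 2-fold line by this measure, which understates changes at low levels, and GABPA and TFAM were low in level. The plain TPM ratio was 0.286 for GABPA, 0.334 for TFAM and 0.439 for GABPB1. NRF1 (8.54 and 7.33 TPM), YY1 (13.4 and 12.6 TPM) and MYC (3.76 and 3.94 TPM) did not pass 2-fold. The highest of this list were POLRMT (104.0 and 113.7 TPM) and ESRRA (47.8 and 32.7 TPM).

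All 15 transcripts of the mitochondrial genome were below 0, beside 63.3% of all expressed genes, and 10 of the 15 were below the median of all genes. Their median change was -0.53, and -0.32 after rescaling. The rRNAs on which the ribosome is built were the least changed but for MT-ND3, MT-RNR1 with 2477 and 2258 TPM and MT-RNR2 with 7784 and 7372 TPM, although the libraries were made from poly-T selected RNA, which limits what these values measure. MT-ATP8 fell from 1619 to 308.5 TPM and MT-ND4L from 1711 to 719.0 TPM, and both share bases with another transcript. The 75 nuclear-encoded subunits of the respiratory chain and ATP synthase had a median change of 0.02. Of them, 3 (ATP5F1, NDUFS1 and ATP5A1) fell over 2-fold (4%, against 9.61% of all expressed genes). NDUFS1 (change -1.01) and ATP5A1 (change -1.01) lay just past the line. The 81 expressed genes of the cytosolic ribosome had a median of 0.09, with none past 2-fold in either direction. By the plain TPM ratio, RPL10L (2.74 and 6.28 TPM), which was low in level, passed 2-fold (ratio 2.30). The range of the cytosolic list, from -0.77 (RPL15) to 0.96 (RPL10L), did not hold a value like those of MRPS27, MRPL10 or MRPS35. The cytosolic genes were listed at far higher levels, with a median of 1700 TPM in PLC-8024-CTR against 72.6 TPM for the 78 genes. Falls larger than any of the cytosolic list were found in other lists, among them MT-ATP8 (change -2.39) and ATP5F1 (change -1.89). Whether the lists differ could not be tested with 1 library per condition.

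The change of the 78 genes was finally set against the GC content of their longest transcripts (GENCODE v44 on GRCh37). Changes of expressed protein-coding genes tended to rise with this content. With the length of the same transcripts, the change had a Spearman's rho of -0.29 across the 78 genes. GC content ranged from 33.5% (MRPL13) to 66.7% (MRPL41), and Spearman's rho with the change was 0.47 across the 78 genes and 0.33 across 11779 expressed protein-coding genes, both as descriptions of genes that share the same libraries. In the third of the genes with the lowest GC content, 5 of 26 were above 0 and the median was -0.52, beside -0.47 for the protein-coding genes of the same range. Of the 26 genes of intermediate GC content, likewise 5 were above 0, and the median was -0.15, beside -0.32. In the third with the highest, 15 of 26 were above 0 and the median was 0.02, beside -0.06. With the GC trend subtracted, 45 of the 78 genes were above 0 instead of 25 and the median was 0.09. This subtraction also centres the changes, and rescaling alone gave 44 genes above 0 and a median of 0.07. MRPS27 (45.6% GC), MRPL10 (51.8%), MRPS35 (40.1%) and MRPS31 (40.2%) lay below the median of genes of similar GC content. All 4 remained lower by over 2-fold after the subtraction.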

How the data were processed

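RNA-seq was performed on 1 library of the control cells and 1 library of the GDF1 cells. The authors filtered the reads with Trimmomatic 0.36, aligned them to hg19 with HISAT2 2.1.0, quantified genes with StringTie 1.3.3b and deposited TPM values for 58174 Ensembl identifiers, although the methods name a RefSeq annotation. TPM holds no depth, and the strandedness of the libraries is not given in the sources used here. The tables were joined by identifier. Positions, overlaps and GC content came from GENCODE v44 on GRCh37, the build of the files, which held 55726 identifiers and all 78 members. Promoter sequences came from RefSeq on GRCh38.p14. Changes used a pseudocount of 1, and genes below 1 TPM in both libraries were left out. The code for the 2-fold call was tested on simulated data.

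The members and lists were chosen with earlier results of these data known. The genes given with values were those past 2-fold, the 8 highest and 5 lowest by mean TPM, the 8 highest and 12 lowest changes with at least 5 TPM, the 3 nearest the 2-fold line, the structural lists with their extremes, overlapping members, and of each other list those past 2-fold and the 2 highest; neighbours, pseudogenes, and the other genes named were chosen after their values were seen. The alternatives were a pseudocount of 0.1, the plain TPM ratio, at least 5 TPM, no minimum, rescaling to a median ratio of 0, scaling over protein-coding genes, subtraction of a lowess GC trend (span 0.3), the same protein-coding genes with the trend kept, and overlapping genes left out. Tables were handled with pandas 2.3.3, correlations with scipy 1.17.1, the trend with statsmodels 0.14.6 and figures with matplotlib 3.10.9, in Python 3.11.15 with numpy 2.4.6.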

Additional observations from a re-analysis of the deposited data

How the results depend on the processing

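No paired analysis was possible because only 1 library was made per condition. MRPS27, MRPL10, MRPS35 and MRPS31 passed 2-fold under each of the 5 alternatives that change their values (pseudocount of 0.1, plain TPM ratio, both rescalings and subtraction of the GC trend). The other 5 change only which genes are included and cannot alter these 4 changes. The change of MRPS27 ranged from -7.22 (plain TPM ratio) to -4.34 (GC trend subtracted). The number of genes that fell over 2-fold was 4 to 6. The signs of the medians, by contrast, depended on the scaling. Rescaling to a median ratio of 0 multiplies every TPM value of PLC-8024-GDF1 by 1.15 and turned 5 medians positive: all members to 0.0676, the large subunit to 0.0437, the small subunit to 0.10, genes with a bacterial homologue to 0.15 and assembly factors to 0.0158. It left 1 gene above 2-fold (MRPS5). In all, 19 genes turned positive, so that 44 were above 0. Among the genes described singly, MRPL11 became 0.0705, MRPL28 0.17, MRPS18C 0.0359 and MRPS24 0.21. Subtraction of the GC trend, which also centres the changes, gave 0.0880, 0.0832, 0.18, 0.17 and 0.0658 for the same 5 medians, left 2 genes above 2-fold (MRPS5 and MRPL22) and reversed MRPL11 (0.0912), MRPL42 (0.0608), MRPS18C (0.31), MRPS24 (0.33) and MRPS34 (-0.0105). Transcripts of the mitochondrial genome had no value in that setting. Leaving out genes that overlap on either strand was an alternative chosen after seeing the data. It gave the nuclear-encoded subunits of the respiratory chain and ATP synthase a median of -0.0260 instead of 0.02. The cause was not tested. TPM values carry no depth, which limits the genes with the lowest TPM most, the 0.202 TPM of MRPS27 among them.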
